A study of Homo sapiens with 23 samples.

Results

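The genes described are F3, TFPI, TFPI2, PROCR, PLAU, PLAUR and PLAT, which encode tissue factor, its inhibitor and a relative of that inhibitor, the endothelial protein C receptor, and the activators of plasminogen with the receptor of one of them. They are 7 of the 28105 genes in the RNA-seq tables, and each was read from the transcript row with the highest mean read count. F3 and TFPI were chosen by their measured fold changes in the knockouts, so those changes are described here without a test, while the other 5 genes were listed for their roles. The cells are HCT116, a human colorectal cancer line grown in culture, in 4 groups of 2 libraries of polyadenylated RNA. Cells labelled MLL4 KO were set against WT cells, and cells labelled BAP1 KO were set against cells labelled control, whose genotype label is also WT. The names of the deposited tables for BAP1 KO and control, but not those for MLL4 KO and WT, carry osTir1, a plant auxin receptor used to degrade tagged proteins. The labels do not say how the knockouts were made or whether libraries come from separate clones or cultures, so p-values measure the spread between these libraries, which may be technical.

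Tissue factor is a membrane protein that binds factor VII and starts the clotting cascade; colorectal tumours are known to carry it. TFPI blocks the tissue factor complex through its Kunitz domains, and the protein C receptor, encoded by PROCR, presents protein C to thrombin and thrombomodulin so that clotting is turned down. The proteases uPA and tPA, encoded by PLAU and PLAT, turn plasminogen into plasmin, which dissolves fibrin and matrix, and uPAR, encoded by PLAUR, holds uPA at the cell surface, where tumour cells use it in invasion. MLL4, encoded by KMT2D, is a methyltransferase that places H3K4me1 at enhancers, and BAP1 is a deubiquitinase of histone H2A.

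Counts summed over genes ranged from 24.8 to 42.2 M per library (M, 1e6). Levels are given as counts per 1e6 scaled by TMM (CPM). Neither target had less transcript where it was knocked out. KMT2D lay at 280 and 406 CPM in MLL4 KO, against 309 and 371 CPM in WT. BAP1 lay at 67.4 and 57.4 CPM in BAP1 KO, against 56.7 and 62.1 CPM in control. A frameshift can leave a transcript in place, so the labels are not checked by these levels, and MLL4 KO and BAP1 KO stand below for the libraries labelled so. Of 10 markers of colon epithelium, 6 were above 1 CPM in both libraries of every group, among them EPCAM, CDH1, CDX2 and VIL1, and CDX1 had no read in any library. The summed level of these 10 markers was 4563 to 4586 CPM in MLL4 KO and 2809 to 2814 CPM in WT, and 1914 to 2219 CPM in BAP1 KO and 3807 to 3829 CPM in control. That sum is mostly KRT8 and KRT18. In MLL4 KO the list did not move as a whole. EPCAM was lower there, at 109 and 119 CPM against 214 and 282 CPM in WT (log2 fold change -1.12, edgeR adjusted p = 0.0145). KRT8 and KRT18 were higher, by 0.74 and 1.01 (adjusted p = 0.00897 and 0.00394). CDH1, CDX2 and VIL1 did not pass (adjusted p = 0.644, 0.995 and 0.506). Over all tested genes 9.13% were higher and 10% lower in MLL4 KO. CDX2 had 17.6 and 18.7 CPM in MLL4 KO against 17.9 and 18.3 CPM in WT. In BAP1 KO most expressed markers were lower than in control, where 10.4% of all tested genes were lower. The log2 fold change was -1.33 for EPCAM, -2.27 for CDH1, -0.69 for KRT8, -0.98 for KRT18 and -0.70 for CDX2 (edgeR adjusted p = 0.000787 to 0.0106). VIL1 did not pass in BAP1 KO (0.44, adjusted p = 0.0895). Control itself was above WT for CDH1 (1.75, edgeR adjusted p = 0.0105), EPCAM (0.69, 0.0287) and KRT18 (0.63, 0.00334). KRT8, CDX2 and VIL1 did not pass there (0.139, 0.82 and 0.147), where 19.9% of all tested genes were higher. CDH1 had 28.1 and 70.2 CPM in BAP1 KO and 77.9 and 62.3 CPM in WT, so these libraries overlapped. The part of these markers in the results was not tested. The 5 endothelial markers summed to 0.719 to 2.2 CPM over the 8 libraries and the 5 blood cell markers to 0.313 to 1.54 CPM. The 5 fibroblast markers summed to 25.7 to 54.9 CPM, nearly all of it COL1A1, with DCN and LUM at 0. The 5 hepatocyte markers summed to 2.05 to 2.07 CPM in MLL4 KO and 0.531 to 1.98 CPM in WT, and to 2.39 to 2.71 CPM in BAP1 KO and 7.33 to 7.64 CPM in control, mostly SERPINA1, with TTR and APOB at 0. In such bulk samples, fewer cells with a transcript and less of it per cell cannot be told apart.

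F3 stood higher in MLL4 KO and lower in BAP1 KO, each against its own unedited cells. It lies on chromosome 1, 94529173 to 94541759 (hg38), and was read from transcript NM_001993. Its level was 64.9 and 66.2 CPM in MLL4 KO, against 29.9 and 30.7 CPM in WT. In BAP1 KO it was 12.8 and 13.4 CPM, against 24.1 and 26.0 CPM in control. Replicates were close and no library of one group reached the other in either comparison. The fitted log2 fold change was 1.11 ± 0.12 (SE, n = 2 against 2) for MLL4 KO, which is 2.16-fold, and -0.93 ± 0.13 for BAP1 KO, which is 1.91-fold lower. Control and WT libraries differed less, by -0.27 ± 0.12 on the log2 scale for control against WT. BAP1 KO therefore held the lowest F3 level of the 4 groups and MLL4 KO the highest.

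The sequences before the annotated starts of F3, TFPI and PLAUR are shown because these are the members whose libraries in MLL4 KO all lay above those in WT. The share of all genes with that order was not counted, and F3 and TFPI were picked for their knockout changes. Each is the 250 bases before the start, from RefSeq (GRCh38.p14), 5′ to 3′ on the gene's strand, which is the minus strand for all 3 genes. Capitals mark matches, on either strand, to the AP-1 motif TGANTCA, the Sp/KLF motif GGGCGG and the EGR motif GCGGGGGCG. The windows are chr1:94541760-94542009 for F3, chr2:187554436-187554685 for TFPI and chr19:43670170-43670419 for PLAUR.
F3: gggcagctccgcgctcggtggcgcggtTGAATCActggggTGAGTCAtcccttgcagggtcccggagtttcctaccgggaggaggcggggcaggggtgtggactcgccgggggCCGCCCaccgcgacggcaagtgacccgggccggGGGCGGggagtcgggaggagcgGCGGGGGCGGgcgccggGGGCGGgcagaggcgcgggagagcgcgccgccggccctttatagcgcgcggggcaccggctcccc
TFPI: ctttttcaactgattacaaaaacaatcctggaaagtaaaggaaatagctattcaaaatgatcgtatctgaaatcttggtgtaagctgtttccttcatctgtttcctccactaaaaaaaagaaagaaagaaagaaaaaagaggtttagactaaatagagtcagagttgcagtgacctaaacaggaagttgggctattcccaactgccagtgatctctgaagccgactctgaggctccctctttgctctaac
PLAUR: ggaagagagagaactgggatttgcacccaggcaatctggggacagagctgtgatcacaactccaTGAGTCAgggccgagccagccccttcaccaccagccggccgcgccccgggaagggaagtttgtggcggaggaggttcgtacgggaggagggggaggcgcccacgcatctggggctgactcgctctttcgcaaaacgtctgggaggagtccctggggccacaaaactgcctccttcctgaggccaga
The F3 window held 2 AP-1 matches, 4 Sp/KLF matches and 1 EGR match, the last overlapping an Sp/KLF match, and 78% of its bases were G or C. The TFPI window held none of the 3 motifs and was 38.4% G or C, and the PLAUR window held 1 AP-1 match and was 63.2% G or C, against a median of 58% over all promoters. Of 35116 promoter windows of the same length, 6.57% held the AP-1 motif, 42.6% the Sp/KLF motif and 4.72% the EGR motif. The 3 windows thus share no searched motif, and a match describes letters only. Of the 10 listed AP-1, EGR and ETS factor genes, 0 passed the edgeR quasi-likelihood test at an adjusted p of 0.05 in either comparison, where 19.1% of all tested genes passed in MLL4 KO and 22.4% in BAP1 KO; at an unadjusted p under 0.05 there were 4 in MLL4 KO (2 higher, 2 lower) and 1 in BAP1 KO (lower), and with DESeq2 3 and 1 were called.

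TFPI was almost without reads in BAP1 KO, while in MLL4 KO its level lay above that in WT. The gene lies on chromosome 2, 187464230 to 187554435, and was read from transcript NM_001329239. In BAP1 KO it had 2 reads in replicate 1 and 0 in replicate 2, against 659 and 913 reads in control. These counts make the summed level in BAP1 KO 0.138% of that in control, with an exact (Clopper-Pearson) 95% interval of 0.0167% to 0.5%, which covers counting error only; this is 724-fold lower. The fitted log2 value, -9.36 ± 0.44, depends on the count that edgeR adds and on 1 library, being -12.64 without BAP1 KO replicate 1 and -8.51 without BAP1 KO replicate 2. In MLL4 KO the level was 24.0 and 24.7 CPM, against 12.1 and 9.44 CPM in WT, a log2 fold change of 1.18 ± 0.20 (SE), with no overlap of libraries. Control stood at 25.8 and 23.4 CPM, so it too was above WT, by 1.19 ± 0.20 on the log2 scale, and the MLL4 KO libraries lay at the level of control.

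The tables also hold rows for the 2 protein forms of TFPI, which share exons and so reads and cannot show the pattern for each form separately. The row of the long form, TFPI alpha (NM_006287), which is secreted, averaged 23.8 ± 0.538 CPM in MLL4 KO and 10.6 ± 1.95 CPM in WT (SD, n = 2 each), and 0.0319 ± 0.0451 CPM in BAP1 KO and 24.0 ± 1.57 CPM in control. The row of the short form, TFPI beta (NM_001032281), which has another end and is anchored in the membrane, averaged 11.1 ± 0.404 CPM in MLL4 KO and 5.28 ± 0.314 CPM in WT, and had no read in BAP1 KO against 614 reads in control, at least 188-fold lower with a floor of 3 counts over the group. The long annotated span of TFPI is overlapped by CALCRL-AS1, a noncoding gene with no row in the tables.

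The genes around TFPI were read in BAP1 KO, a choice made after its level had been seen. With a span reaching within 1 Mb of it the tables held 8 other genes, of which 5 had enough reads to test. CALCRL, the nearest of them, which encodes a receptor for calcitonin-related peptides, had 1.66 and 2.71 CPM in BAP1 KO, against 2.08 and 2.26 CPM in control, a log2 fold change of -0.0086 ± 0.33 (edgeR adjusted p = 0.989). The integrin gene ITGAV had 131 and 112 CPM in BAP1 KO, against 105 and 106 CPM in control (adjusted p = 0.26). GULP1, an engulfment adaptor, was higher in BAP1 KO, by 0.62 ± 0.18 (adjusted p = 0.0342), and FAM171B and ZC3H15 did not pass (adjusted p = 0.181 and 0.344). No tested neighbour therefore had a loss of reads like that of TFPI.

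**Figure D1:**
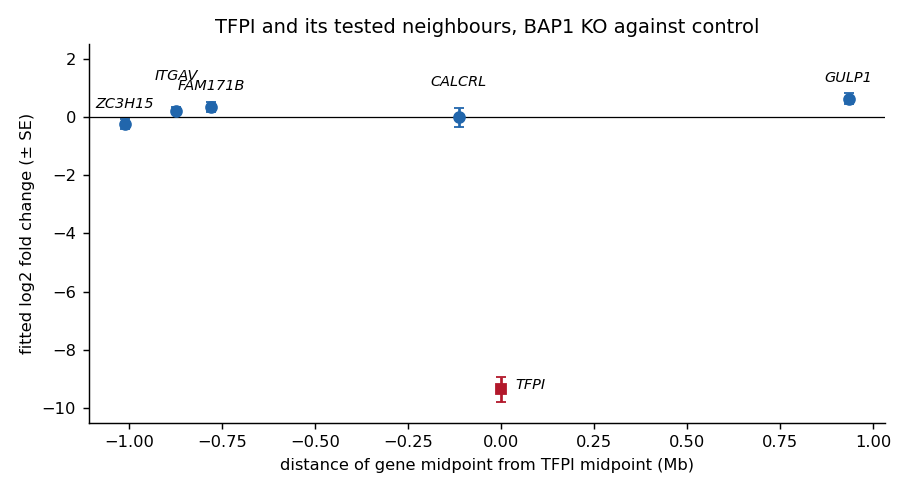
Fitted log2 fold change (± SE, n = 2 against 2) in BAP1 KO against control for TFPI and the 5 tested genes within 1 Mb, by distance of the gene midpoints in Mb. The neighbours lie near 0, at -0.25 to 0.62, and TFPI at -9.36, a fitted value that depends on the count edgeR adds.

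TFPI2, a Kunitz inhibitor of plasmin and other proteases found in matrix, was barely detected. It lies on chromosome 7, 93885396 to 93890753. It had 8 and 4 reads in MLL4 KO and 2 and 6 reads in WT, and 5 and 6 reads in BAP1 KO and 3 and 6 reads in control, and it did not pass the filter on low counts. The ratio of summed levels was 1.12 for MLL4 KO over WT (exact 95% interval 0.422 to 3.17) and 1.33 for BAP1 KO over control (0.5001 to 3.62), so a difference within these bounds was not detectable at this depth.

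PROCR did not pass the test in any comparison. It lies on chromosome 20, 35171096 to 35216259, and was read from NM_006404. It had 46.7 and 44.0 CPM in MLL4 KO, against 40.0 and 47.2 CPM in WT. Levels in BAP1 KO were 22.6 and 38.2 CPM, against 37.4 and 32.8 CPM in control. The libraries overlapped in both comparisons, and BAP1 KO replicate 1 was the lowest of the 8. The log2 fold change was 0.058 ± 0.22 (SE, edgeR adjusted p = 0.873) for MLL4 KO and -0.21 ± 0.22 (adjusted p = 0.541) for BAP1 KO, and that of BAP1 KO was 0.13 without BAP1 KO replicate 1 and -0.63 without replicate 2, with adjusted p = 0.0565 at its lowest over all alternatives and 0.852 at its highest. Its annotated span lies within that of the readthrough gene MMP24-AS1-EDEM2, so a share of reads may be uncertain as to gene.

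PLAU, which encodes uPA, fell in BAP1 KO against control, the group in which it was far higher than in the other 3. It lies on chromosome 10, 73908832 to 73917494, and was read from NM_002658. It had 19.4 and 49.8 CPM in BAP1 KO, against 552 and 547 CPM in control. In MLL4 KO it had 49.1 and 101 CPM, against 53.9 and 21.1 CPM in WT. The BAP1 KO libraries, like those of MLL4 KO, overlapped WT, and both control libraries stood far above the other 6. The log2 fold change was -3.99 ± 0.69 (SE, edgeR adjusted p = 0.0117) for BAP1 KO, a 15.9-fold fall, and 1.00 ± 0.63 (adjusted p = 0.305) for MLL4 KO, where libraries overlapped. Control against WT gave 3.88 ± 0.69 (adjusted p = 0.00707), or 14.7-fold. The replicates of the BAP1 KO, MLL4 KO and WT groups differed more than 2-fold: the BAP1 KO change was -3.46 without BAP1 KO replicate 1 and -4.83 without replicate 2, and control against WT was 4.70 without WT replicate 1 and 3.35 without WT replicate 2. The BAP1 KO call ended without control replicate 1 or 2 (adjusted p = 0.0704 and 0.0672; 7.09e-07 to 0.0704 over all alternatives). The noncoding gene C10orf55 overlaps PLAU over 7526 bases and had 3.92 and 7.59 CPM in BAP1 KO and 107 and 102 CPM in control; the strand setting is not known, so the reads of the pair cannot be told apart.

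PLAUR, the uPA receptor, rose in MLL4 KO and fell in BAP1 KO. It lies on chromosome 19, 43646095 to 43670169, and was read from NM_002659. It had 48.3 and 76.8 CPM in MLL4 KO, against 26.4 and 29.3 CPM in WT. BAP1 KO libraries had 52.3 and 60.8 CPM, against 87.8 and 86.5 CPM in control. No library overlapped in either comparison, and BAP1 KO, although lower than control, stayed above both WT libraries. The log2 fold change was 1.17 ± 0.20 (SE, edgeR adjusted p = 0.0109) for MLL4 KO and -0.62 ± 0.20 (adjusted p = 0.0487) for BAP1 KO, and 1.65 ± 0.20 (adjusted p = 0.000399) for control against WT. The MLL4 KO call ended without WT replicate 2 (adjusted p = 0.0515) and with only the 4 libraries of the comparison (0.0772; 4.76e-06 to 0.0772 over all alternatives). The BAP1 KO call is at the edge of the threshold: it ended in 9 of 19 alternatives, with adjusted p = 0.0523 under edgeR's legacy dispersion, 0.063 with the sum of transcript rows, 0.0634 with a crossed block, 0.0554 and 0.0553 without either WT library, 0.275 and 0.104 without BAP1 KO replicate 1 or 2, and 0.194 and 0.177 when a control library was left out (lowest 0.00114).

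PLAT, which encodes tPA, did not pass the test in either knockout. It lies on chromosome 8, 42174718 to 42207565. It had 32.2 and 10.5 CPM in MLL4 KO, against 11.2 and 7.13 CPM in WT. The BAP1 KO libraries stood at 5.52 and 4.24 CPM, against 3.96 and 3.64 CPM in control. MLL4 KO replicate 1 was the only library above 12 CPM, and MLL4 KO replicate 2 lay within the WT range. The log2 fold change was 1.24 ± 0.49 (SE, edgeR adjusted p = 0.115) for MLL4 KO and 0.37 ± 0.59 (adjusted p = 0.692) for BAP1 KO. The MLL4 KO value rested on 1 library, being 0.21 without MLL4 KO replicate 1 (adjusted p = 0.648) and 1.85 without replicate 2 (adjusted p = 0.0128), which are the highest and lowest p over all alternatives; it also passed with DESeq2 (0.0184) and with the replicate block (0.04997). Control against WT was at -1.26 ± 0.56 (adjusted p = 0.112), and passed without either MLL4 KO library (0.00706 and 0.00713) and with DESeq2 (0.00804), the 4 libraries (0.0205) or the block (0.0289).

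**Figure D2:**
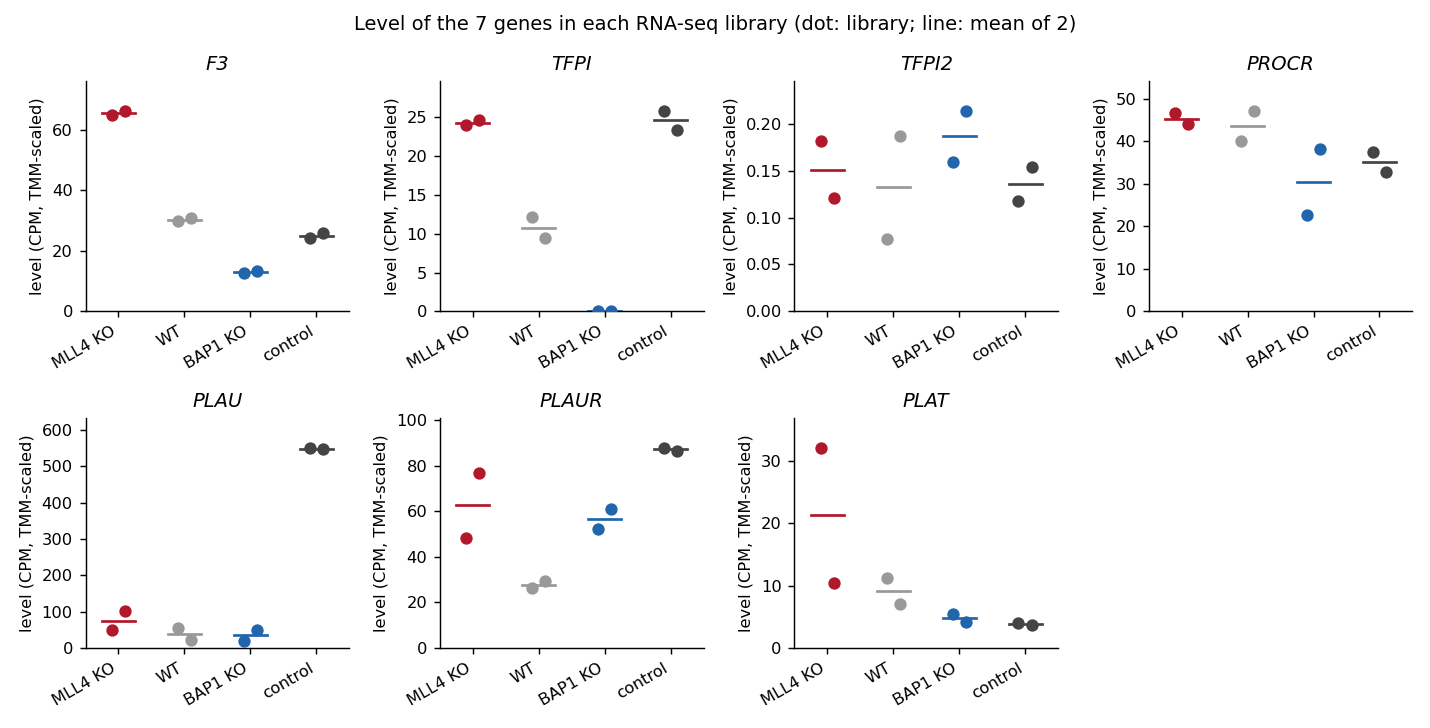
TMM-scaled CPM of the 7 genes in each library (dots) with the mean of the 2 libraries (lines), for MLL4 KO, WT, BAP1 KO and control; each panel has its own axis from 0. F3 is highest in MLL4 KO and lowest in BAP1 KO, TFPI is at 0 or near it in BAP1 KO, and PLAU is above 500 CPM in control only.

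**Figure D3:**
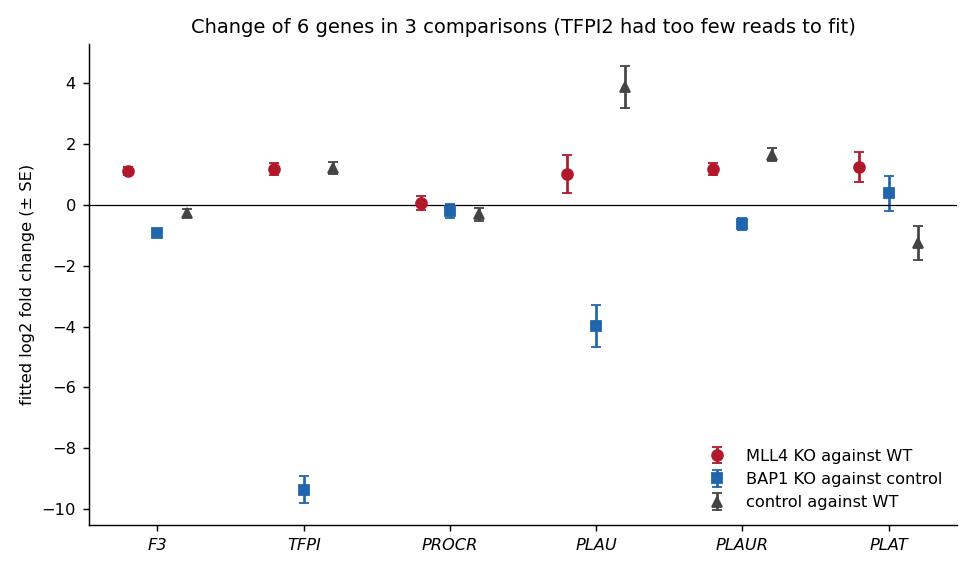
Fitted log2 fold change (± SE, n = 2 against 2) of 6 genes in each of 3 comparisons, MLL4 KO over WT, BAP1 KO over control and control over WT. PLAUR lies at 1.17, -0.62 and 1.65. F3 and TFPI were picked for their knockout changes and are shown as a description.

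Of the 5 genes listed for their roles, 4 passed the filter on low counts and were tested, and TFPI2 was not. Of these 4, 1 rose in MLL4 KO (PLAUR) and 0 fell, where 19.1% of all 16831 tested genes passed an adjusted p of 0.05 (9.13% higher, 10% lower), and 2 fell in BAP1 KO (PLAU and PLAUR) and 0 rose, where 22.4% of all tested genes passed (12.1% higher, 10.4% lower). Between control and WT, 2 of the 4 passed (PLAU and PLAUR, both higher in control), where 39.6% of all tested genes passed (19.9% higher, 19.7% lower). With 4 genes, shares of this size are not set apart from the background. Each taken against its own unedited group, the knockout effects differed for PLAUR, by 1.79 ± 0.28 on the log2 scale for MLL4 KO minus BAP1 KO (SE, edgeR adjusted p = 0.00468), and for PLAU, by 4.99 ± 0.92 (adjusted p = 0.0207). Over all tested genes 16.1% passed in this contrast (7.75% higher, 8.32% lower). Such a contrast also holds the difference of control and WT, at 1.65 for PLAUR and 3.88 for PLAU, whose part in it was not tested. The PLAU difference lost its call without MLL4 KO replicate 2 (adjusted p = 0.0594), WT replicate 2 (0.0553), control replicate 1 (0.0885) or control replicate 2 (0.08805) and with no filter on low counts (0.05409; lowest 2.56e-05), and it was 5.81 without WT replicate 1 and 5.83 without BAP1 KO replicate 2. For PROCR and PLAT the difference did not pass (adjusted p = 0.591 and 0.476).

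Levels were compared between genes per transcript length, as deposited RPKM (reads per kilobase per 1e6 reads). Each gene is on its row with the highest mean count, and another row can change the order. In WT the row of the short TFPI form had 3.87 and 3.43 RPKM, above the 2.97 and 1.83 RPKM of PLAT. In control the order was PLAU at 179 ± 0.452, PLAUR at 48.6 ± 0.099, PROCR at 19.9 ± 1.67, F3 at 8.32 ± 0.513, TFPI at 4.68 ± 0.284, PLAT at 0.947 ± 0.0476 and TFPI2 at 0.047 ± 0.0093 RPKM (SD, n = 2). No neighbours in that order overlapped. In WT PROCR led at 25.8 ± 2.35 RPKM, PLAUR followed at 16.3 ± 0.785, PLAU at 12.9 ± 8.24 lay within its own spread of both PLAUR and F3 at 10.6 ± 0.0528, and PLAT (2.4 ± 0.808) and TFPI (2.16 ± 0.435) overlapped. In MLL4 KO PLAUR at 36.3 ± 11.3, PROCR at 26.8 ± 1.44, PLAU at 25.3 ± 12.1 and F3 at 22.7 ± 0.0496 RPKM led; PLAUR lay above PROCR in both libraries, the range of PLAU overlapped PLAUR, PROCR and F3, and PLAT (5.56 ± 4.04) covered TFPI (4.82 ± 0.0444). In BAP1 KO PLAUR led at 32.7 ± 3.18 RPKM, PROCR (17.8 ± 6.32) and PLAU (11.7 ± 7.15) overlapped, and TFPI was last, below TFPI2, with 0.0127 and 0 RPKM.

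Tissue factor was also set against its inhibitor on this scale. The ratio of F3 to TFPI in RPKM was 4.73 and 4.68 in MLL4 KO and 4.29 and 5.68 in WT, so it overlapped although both genes were higher in MLL4 KO. It was 351 in BAP1 KO replicate 1 and could not be formed in replicate 2, where TFPI is at 0, against 1.63 and 1.94 in control. The value of 351 rests on 2 TFPI reads and 402 F3 reads, so its size is uncertain. The ratio of PLAU to PLAUR was 0.594 and 0.765 in MLL4 KO and 1.19 and 0.422 in WT, and 0.216 and 0.478 in BAP1 KO and 3.67 and 3.69 in control. PLAU exceeded PLAUR in both control libraries and in WT replicate 1 on this scale.

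**Figure D4:**
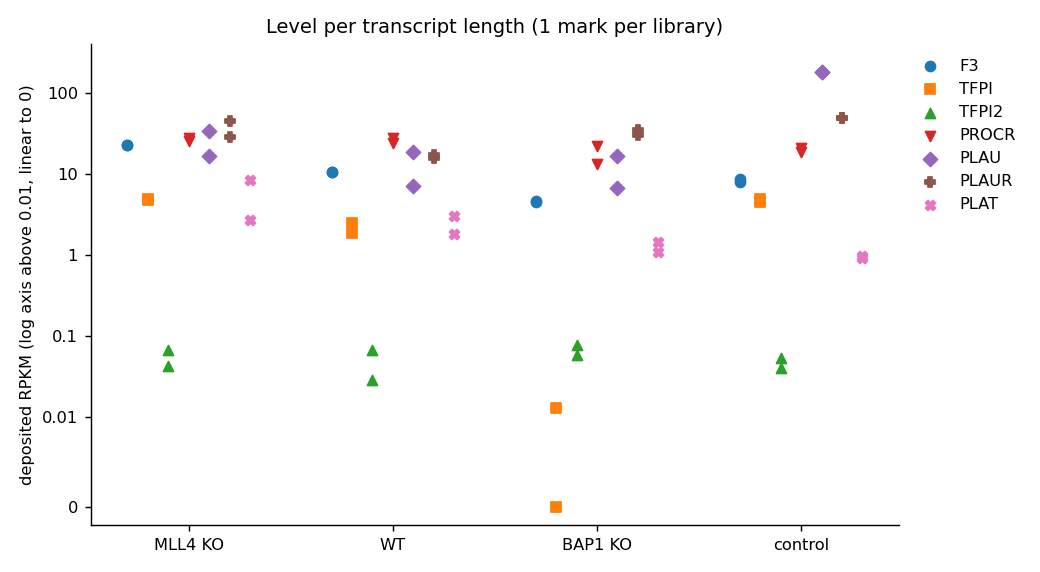
Deposited RPKM of the 7 genes, 1 mark per library, in MLL4 KO, WT, BAP1 KO and control, on an axis that is logarithmic above 0.01 and linear down to 0. PLAU leads in control at 179 RPKM, PLAUR leads in BAP1 KO at 32.7 RPKM, and TFPI drops below TFPI2 in BAP1 KO.

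The genes whose log2(CPM + 1) over the 8 libraries was most like that of F3, among 11247 protein-coding genes of at least 5 CPM, were BMP6 (Pearson r = 0.986), ATP5MC2 (r = 0.979) and IGF1R (r = 0.975). For TFPI they were NKIRAS2 (r = 0.984), DPP4 (r = 0.98) and UNC13A (r = 0.979). These values describe 8 libraries in 4 groups that share their lines, and 19 and 25 genes had r above 0.95 for F3 and TFPI. BMP6, a bone morphogenetic protein, averaged 19.6 ± 1.1 CPM in MLL4 KO and 14.8 ± 0.287 CPM in WT, and 10.8 ± 0.59 CPM in BAP1 KO and 13.6 ± 0.441 CPM in control (SD, n = 2 each). DPP4, a surface peptidase, averaged 8.47 ± 0.162 CPM in MLL4 KO and 5.4 ± 3.39 CPM in WT, and 0.227 ± 0.22 CPM in BAP1 KO and 10.6 ± 1.06 CPM in control. UNC13A averaged 6.17 ± 3.09 CPM in BAP1 KO and 151 ± 1.92 CPM in control. NKIRAS2, the closest to TFPI, averaged 29.8 ± 1.38 CPM in BAP1 KO and 42.3 ± 1.16 CPM in control. These genes were picked for likeness to TFPI over the same libraries, so their lower levels in BAP1 KO follow from that choice.

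Among the other genes of clotting and plasminogen activation, 71 genes in 9 lists, 51 had enough reads to test. In MLL4 KO 6 rose and 0 fell, which is 11.8% of the 51, with a median log2 fold change of 0.18 beside 0.004 over all tested genes, of which 19.1% passed. At an unadjusted p under 0.05, 16 were higher and 5 lower, and DESeq2 called 9 higher and 2 lower. In BAP1 KO 10 rose and 6 fell, 31.4% of the 51, with a median of 0.12 beside 0.013 over all tested genes, of which 22.4% passed. The lists were drawn up by role, with earlier results of these data known, and these counts have no test of their own.

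Several genes through which uPA, plasminogen and their inhibitors are bound and cleared rose in BAP1 KO. Of 7 tested, 4 rose in BAP1 KO and 2 in MLL4 KO, and the others did not pass; over all tested genes 12.1% were higher in BAP1 KO and 9.13% in MLL4 KO. S100A10, which with annexin A2 forms a plasminogen receptor, had 179 and 167 CPM in BAP1 KO, against 38.3 and 37.8 CPM in control, a log2 fold change of 2.19 ± 0.28 (SE, edgeR adjusted p = 0.00155), and it had 84.3 and 136 CPM in MLL4 KO, against 95.6 and 159 CPM in WT (adjusted p = 0.594). Control was the low group for S100A10, at -1.75 ± 0.28 against WT (adjusted p = 0.00202). ANXA2, which encodes annexin A2, rose by 0.61 ± 0.12 in BAP1 KO (adjusted p = 0.00746), a call that ended without control replicate 1 (0.092) or control replicate 2 (0.0991; lowest 8.77e-05), and was at -0.31 ± 0.12 in MLL4 KO (adjusted p = 0.103). For both genes the knockout effects differed, by -2.4 ± 0.39 for S100A10 (adjusted p = 0.00683) and by -0.92 ± 0.17 for ANXA2 (adjusted p = 0.00941). MRC2, an endocytic receptor that takes up collagen and binds the uPA receptor complex, had 249 and 240 CPM in BAP1 KO, against 44.0 and 45.1 CPM in control. In MLL4 KO it had 49.6 and 96.2 CPM, against 21.9 and 15.6 CPM in WT. It rose by 2.46 ± 0.29 in BAP1 KO (adjusted p = 0.0012) and by 1.96 ± 0.30 in MLL4 KO (adjusted p = 0.0104). Control too was above WT for MRC2, by 1.25 ± 0.30 (adjusted p = 0.0119). LRP1, the receptor that clears uPA bound to its inhibitors, rose by 1.48 ± 0.25 in BAP1 KO (adjusted p = 0.00354) and by 1.12 ± 0.24 in MLL4 KO (adjusted p = 0.02). In MLL4 KO the LRP1 call ended with the 4 libraries of the comparison (0.103) and without MLL4 KO replicate 2 (0.0697; lowest 0.000319), and the MRC2 call with the 4 libraries (0.0712) and without WT replicate 2 (0.0751; lowest 1.9e-11).

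Of 5 tested inhibitors of plasmin and plasminogen activators, 1 rose in each knockout, where 12.1% of all tested genes were higher in BAP1 KO and 9.13% in MLL4 KO. That gene was SERPINI1, which encodes neuroserpin, an inhibitor of tPA. It had 7.75 and 7.77 CPM in BAP1 KO, against 2.12 and 3.15 CPM in control, a log2 fold change of 1.52 ± 0.25 (SE, edgeR adjusted p = 0.00278). In MLL4 KO it had 6.37 and 6.51 CPM, against 3.8 and 2.97 CPM in WT, a log2 fold change of 0.94 ± 0.24 (adjusted p = 0.0296), a call that ended in 8 of 19 alternatives, at 0.0518 to 0.149: with the 4 libraries and without any 1 library but WT replicate 1 (lowest 0.0184). SERPINE2, protease nexin 1, did not pass in MLL4 KO (0.39 ± 0.15, adjusted p = 0.0861; 0.036 without MLL4 KO replicate 1 and 0.0426 with upper-quartile scaling) or in BAP1 KO (0.32 ± 0.14, adjusted p = 0.137; 0.0173 with the 4 libraries), and SERPINB2, which encodes a further inhibitor of uPA, had no read in 7 of the 8 libraries.

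Among the anticoagulants, THBD fell in BAP1 KO and PROS1 rose in MLL4 KO, of 7 tested. Over all tested genes 10.4% were lower in BAP1 KO and 9.13% higher in MLL4 KO. THBD, which encodes thrombomodulin, the thrombin receptor that works with the protein C receptor, had 0.223 and 0.143 CPM in BAP1 KO, against 1.29 and 1.31 CPM in control, and fell by 2.79 ± 0.55 on the log2 scale (SE, edgeR adjusted p = 0.00723). That call ended without BAP1 KO replicate 1 (0.0554), BAP1 KO replicate 2 (0.0511) or control replicate 2 (0.0581; lowest 0.00276). PROS1, which encodes protein S, the cofactor of protein C and TFPI, had 25.1 and 27.2 CPM in MLL4 KO, against 11.9 and 8.84 CPM in WT, and rose by 1.34 ± 0.20 (adjusted p = 0.00841), a call that ended with the 4 libraries of the comparison (0.0633; lowest 8.29e-07). In BAP1 KO PROS1 was at -0.046 ± 0.20 (adjusted p = 0.893), and its knockout effects differed by 1.38 ± 0.28 (adjusted p = 0.0135). Control had 20.6 and 19.2 CPM of PROS1, above WT by 0.94 ± 0.21 (adjusted p = 0.00626). Both tested thrombin and protease receptors rose in BAP1 KO, where 12.1% of all tested genes were higher. F2R, which encodes PAR1, rose by 0.85 ± 0.14 (adjusted p = 0.00316). F2RL1, which encodes PAR2, the receptor cleaved by the tissue factor complex, rose by 0.74 ± 0.22 (adjusted p = 0.0381). F2R lost its call without control replicate 1 (0.0573; lowest 1.57e-05). F2RL1 lost its call with the replicate block (0.0543), with the sum of transcript rows (0.0504), without either BAP1 KO library (0.13 and 0.147) and without either control library (0.178 and 0.198; lowest 0.000287). In MLL4 KO F2R was at 0.37 ± 0.14 (adjusted p = 0.0965) and F2RL1 at -0.61 ± 0.22 (adjusted p = 0.0797; 0.0319 without MLL4 KO replicate 1, 0.0121 without WT replicate 1 and 0.0257 with DESeq2), and the F2RL1 effects differed by -1.35 ± 0.31 (adjusted p = 0.0206).

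Of 16 genes of clotting factors, 5 had enough reads to test and F10 alone passed, in both knockouts. Over all tested genes 19.1% passed in MLL4 KO and 22.4% in BAP1 KO. F10, which encodes factor X, the substrate of the tissue factor complex, had 8.92 and 8.22 CPM in MLL4 KO, against 2.21 and 1.09 CPM in WT, a log2 fold change of 2.41 ± 0.66 (SE, edgeR adjusted p = 0.0415). In BAP1 KO it had 1.95 and 8.69 CPM, against 1.25 and 0.667 CPM in control, a log2 fold change of 2.52 ± 0.76 (adjusted p = 0.0495). The BAP1 KO value rested on replicate 2, at 1.09 without it (adjusted p = 0.216) and 3.25 without replicate 1 (adjusted p = 0.00635), and these F10 calls ended in 10 of 19 alternatives for MLL4 KO (adjusted p up to 0.244, lowest 0.000568) and in 14 of 19 for BAP1 KO (up to 0.295 without control replicate 2, lowest 0.000242). Leaving out any 1 of the MLL4 KO, WT or control libraries ended the MLL4 KO call, and leaving out any 1 library but BAP1 KO replicate 1 ended the BAP1 KO call. The factor VII gene F7 did not pass the filter on low counts. Of 5 genes of the vitamin K cycle and of factor secretion, 3 fell in BAP1 KO, where 10.4% of all tested genes were lower; in MLL4 KO 0 passed with edgeR or DESeq2 and 1 was higher at an unadjusted p under 0.05. LMAN1 and MCFD2, which carry factors V and VIII out of the endoplasmic reticulum, fell by 0.74 ± 0.12 (adjusted p = 0.00316) and by 0.51 ± 0.11 (adjusted p = 0.0103) on the log2 scale. The carboxylase gene GGCX fell by 0.65 ± 0.12 (adjusted p = 0.00455). These 3 were named after their values were seen and were not followed gene by gene under the alternatives. For all 3 control was the highest group: GGCX averaged 80.0 CPM in MLL4 KO, 76.4 CPM in WT, 77.0 CPM in BAP1 KO and 121 CPM in control. Control against WT was at 0.66 ± 0.12 for GGCX (adjusted p = 0.00218), 0.95 ± 0.12 for LMAN1 (adjusted p = 0.000484) and 1.04 ± 0.11 for MCFD2 (adjusted p = 0.000182).

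Of 4 tested membrane serine proteases and Kunitz inhibitors, 1 passed in BAP1 KO and 0 in MLL4 KO. Over all tested genes 22.4% passed in BAP1 KO and 19.1% in MLL4 KO. PRSS8, which encodes prostasin, had 26.7 and 39.4 CPM in BAP1 KO, against 85.3 and 87.8 CPM in control, and fell by 1.39 ± 0.32 (SE, edgeR adjusted p = 0.0196), a call that ended without BAP1 KO replicate 1 (0.128), control replicate 1 (0.0974) or control replicate 2 (0.0997; lowest 1.94e-05). WT had 29.8 and 13.9 CPM, so control stood apart here too, at 1.99 ± 0.33 against WT (adjusted p = 0.0027), and the BAP1 KO libraries did not lie below the WT range. PRSS8 was at 0.76 ± 0.33 in MLL4 KO (adjusted p = 0.136; 0.00364 without WT replicate 1 and 0.0446 with DESeq2), and the effects differed by 2.15 ± 0.46 (adjusted p = 0.0201). Of 6 genes that govern phosphatidylserine at the surface or disulfide exchange, which set the activity of tissue factor, 2 rose and 1 fell in BAP1 KO and 1 rose in MLL4 KO. Over all tested genes 12.1% were higher and 10.4% lower in BAP1 KO, and 9.13% were higher in MLL4 KO. The flippase gene ATP11A rose by 1.03 ± 0.15 in BAP1 KO (adjusted p = 0.00155) and was at 0.17 ± 0.15 in MLL4 KO (adjusted p = 0.44), a difference of -0.87 ± 0.21 (adjusted p = 0.023). The scramblase gene ANO6 rose by 0.48 ± 0.14 in BAP1 KO (adjusted p = 0.0379). P4HB, a disulfide isomerase, fell by 0.39 ± 0.12 in BAP1 KO (adjusted p = 0.0485) and rose by 0.42 ± 0.12 in MLL4 KO (adjusted p = 0.0437). This pair was named after its values were seen, and its calls, near the threshold, were not followed gene by gene under the alternatives. P4HB was also higher in control than in WT, by 0.64 ± 0.12 (adjusted p = 0.00354).

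**Figure D5:**
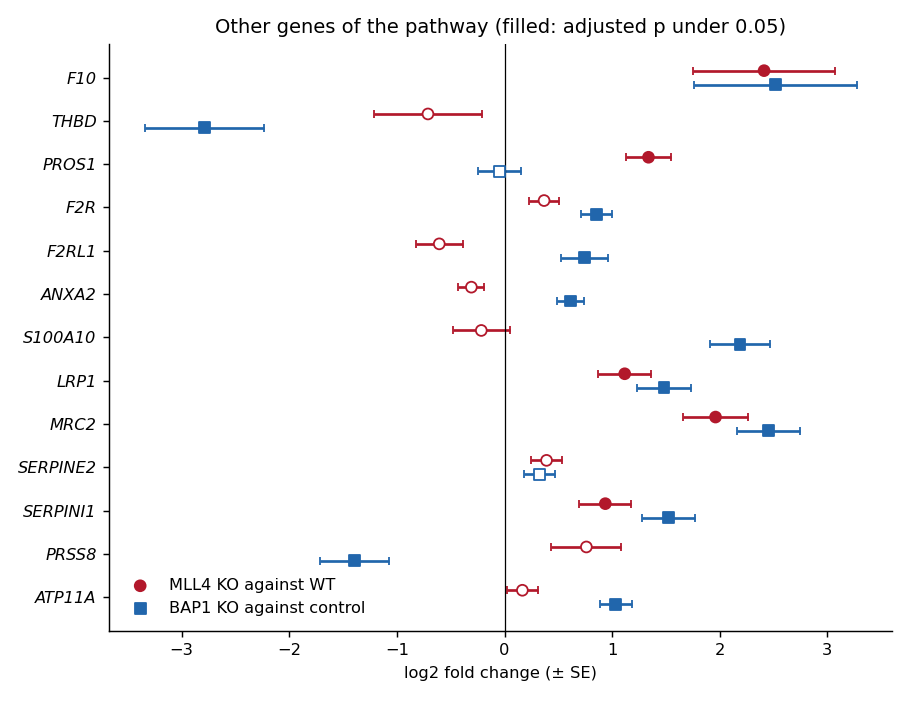
Log2 fold change (± SE, n = 2 against 2) of 13 named genes of the pathway in MLL4 KO over WT (circles) and in BAP1 KO over control (squares); filled marks passed an edgeR adjusted p of 0.05. MRC2, LRP1, SERPINI1 and F10 are filled on the right of 0 in both comparisons, and THBD and PRSS8 are filled on the left in BAP1 KO.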

How the data were processed

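Per the labels' protocols, 1 µg of total RNA per library went through poly(A) selection. Of 23 samples the 8 RNA-seq ones were used; the 15 of ChIP-seq were not analysed here. Sample titles gave the group and replicate. The deposited tables list, per RefSeq transcript (88819 rows), a raw read count and an RPKM value, per the file headers. The submitters' processing notes name hg38, bcl2fastq, Bowtie2, STAR and SICER 1.1 without roles; which counter, strand setting and annotation were used is not stated there. Isoforms of a gene share reads.

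Identifiers were matched to symbols through the RefSeq gene table of GRCh38.p14, which also gave gene positions; 605 rows without a symbol held 0.23% to 0.252% of the counts. The row with the highest mean count stood for each of 28105 genes, and all 7 members matched. The test was run in edgeR 4.0.16 (R 4.3.3): filterByExpr (16831 genes), TMM, 1 quasi-likelihood model over the 8 libraries with a mean per group, robust, with the dispersion setting of edgeR 4 (legacy off), two-sided, Benjamini-Hochberg over all tested genes, threshold 0.05. Each SE was derived as the absolute log2 fold change divided by sqrt(F). PLAUR in BAP1 KO passes with this setting and not with the legacy one, which was seen before the setting was settled on the way these data had been processed earlier. RPKM values entered no test. The members and lists were chosen with earlier results of these data known, so no p is given for F3 and TFPI. Named genes are the members, 9 direct partners (1 of them is not reported here), list genes past the threshold with an absolute log2 change of at least 1 and a mean of 1 CPM or more where higher, and the 3 genes closest in pattern to F3 and to TFPI. The model was also run on counts simulated from 1 common mean per gene, with known changes in BAP1 KO only. Here 39.6% of all tested genes passed between control and WT, so that setting differs from these data and does not vouch for the calls. The alternatives, with DESeq2 1.42.0 among them, are given at the end; those with the legacy dispersion and with crossed numbers were chosen after seeing the data. Intervals are exact and cover counting error only.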

Additional observations from a re-analysis of the deposited data

Results flagged for a closer look

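The effect of MLL4 KO against WT and that of BAP1 KO against control differed, by the edgeR test of the difference (log2, MLL4 KO effect minus BAP1 KO effect), for PLAU at 4.99 and PLAUR at 1.79, and among the named partners for PROS1 at 1.38, F2RL1 at -1.35, ANXA2 at -0.92, S100A10 at -2.4, PRSS8 at 2.15 and ATP11A at -0.87. For F3 the libraries of MLL4 KO all lay above WT and those of BAP1 KO all below control, a difference of 2.05, and for TFPI likewise, with a fitted difference of 10.53 that depends on the count edgeR adds; these differences were not tested, since both genes were picked for their knockout changes. The unedited groups themselves differed for PLAU, which averaged 549 CPM in control and 37.5 CPM in WT. They differed too for PLAUR (log2 fold change 1.65 for control against WT), PROS1 (0.94), S100A10 (-1.75) and PRSS8 (1.995), each past the edgeR threshold. F2RL1, ANXA2 and ATP11A did not pass in that comparison. TFPI stood at 1.19 and F3 at -0.27 there, without a test. The part of the unedited groups in the differences of effects was not tested. With 2 libraries a group, no group was large enough to be searched for a sample that stands apart.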

How the results depend on the processing

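F3 and TFPI kept their direction in both knockouts under all 19 alternatives, with F3 at 1.09 to 1.2 in MLL4 KO and -0.99 to -0.89 in BAP1 KO and TFPI at 1.00 to 1.36 in MLL4 KO; TFPI in BAP1 KO ranged from -12.64 to -8.51 when 1 library was left out. The count of tested members past the threshold was 1 in MLL4 KO as reported, 2 with DESeq2, 2 with the replicate block, 0 with only the 4 libraries of the comparison and 0 to 2 when 1 library was left out. In BAP1 KO it was 2 as reported, 1 with the sum of transcript rows, 1 with the legacy dispersion, 1 with a crossed replicate block and 0 to 2 when 1 library was left out, and for the difference of effects it was 2 as reported, 1 with no filter on low counts and 1 to 2 when 1 library was left out. Over all genes, 3219 passed in MLL4 KO, 60 with the 4 libraries and 530 to 5290 when 1 library was left out, and 3778 passed in BAP1 KO, 6660 with the 4 libraries and 1075 to 5014 when 1 library was left out. Of the pathway genes 6 passed in MLL4 KO, 10 with upper-quartile scaling, 11 with DESeq2, 0 with the 4 libraries and 3 to 19 when 1 library was left out; in BAP1 KO 16 passed, and 7 to 19 when 1 library was left out. Some values that had not passed changed sign when 1 library was left out: PROCR ranged from -0.057 to 0.183 in MLL4 KO, -0.634 to 0.13 in BAP1 KO and -0.068 to 0.692 in the difference, PLAT from -0.16 to 1.48 in the difference, PROS1 from -0.307 to 0.17 in BAP1 KO and S100A10 from -0.577 to 0.202 in MLL4 KO (0.087 without MLL4 KO replicate 1). The causes were not tested.

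The deviations of same-numbered libraries from their group means correlated at -0.189 for MLL4 KO with WT and at -0.001 for BAP1 KO with control. Such values show no pairing by number in these comparisons and cannot exclude pairing under exchanged numbers. With the replicate block 2360 genes passed in MLL4 KO and 3312 in BAP1 KO, and with the numbers of MLL4 KO exchanged 3367 and 3796. Groups of 2 libraries limit the precision, since replicates lay far apart for PLAU and PLAT, and depth limits TFPI2 and TFPI in BAP1 KO.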
